A study of Mus musculus with 9 samples.

Results

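The genes described here are 37 genes of antioxidant defence and of the NRF2 pathway, among them 3 subunits of the NADPH oxidases that make superoxide or peroxide. They were taken by gene symbol from a table of 16951 genes measured in mouse heart, all 37 were found, and none was missing. Hearts of C57BL/6 mice had been collected after saline, after angiotensin II (AngII, a pressor peptide), or after AngII together with prostaglandin E1 (PGE1), and the polyadenylated RNA of 3 samples per treatment was sequenced. The labels name no transgene and no mutated allele in any group. Age, dose, route and length of exposure are not given in the sources used here. Whether each library stands for another mouse is not stated either, and the p-values below therefore rest on variation among libraries, part of which may be technical.

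NRF2, the product of Nfe2l2, is a transcription factor that the adaptor Keap1 marks for degradation. Oxidants and electrophiles modify Keap1, after which NRF2 enters the nucleus, pairs with small Maf proteins and binds the antioxidant response element in genes for glutathione synthesis, quinone reduction, heme breakdown and thioredoxin recycling. The heart is dense in mitochondria, where superoxide is turned into hydrogen peroxide by Sod2 and the peroxide is then removed mainly by Prdx3 with its partners Txn2 and Txnrd2. AngII is known as a stimulus of the NADPH oxidases in the cardiovascular system.

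Promoter sequence from RefSeq (build GRCm38.p6, which is not the build of the deposited table) was at hand for 31 of the 37 genes, as windows from 250 bases before to 50 bases after a transcription start. The core letters of the antioxidant response element, TGACNNNGC, were searched on both strands. They occurred in 8 of the 31 genes (25.8%), against 3781 of 27025 genes with a promoter window (14.0%) and 16.97% of the expressed genes tested here that had a window. A match of these letters is a description of the sequence and not a binding site. The 8 matches are shown with 5 flanking bases because several of these genes recur in the results; the core is in capitals, read 5′ to 3′ on the strand of the gene, where the letters of the other strand read GCNNNGTCA.
Nfe2l2: ccaccTGACTCCGCcatgc
Prdx1: aaagcGCTGAGTCAtcccc
Mgst1: gcttgGCACGGTCAggagg
Txnrd1: tttttGCTTTGTCAttctg
Gclm: cgggcGCACCGTCAactct
Sod1: ggtggGCGTGGTCAgactc
Gstm5: cccacTGACCACGCggagg
Srxn1: gggcaGCTAGGTCAgagtg
The match began 240 bases before the start of Nfe2l2, 134 before that of Gclm, 133 before that of Prdx1, 92 before 1 of the 3 starts of Txnrd1, 56 before that of Sod1 and 1 of the 2 starts of Mgst1, and 42 before that of Gstm5; it lay at transcribed base 29 of Srxn1. No match was found in the windows of Prdx3, Prdx2, Prdx5, Txnip, Cat, Sod2, Gpx3 or Nqo1, which says only that the letters are not in those windows.

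Upstream sequence of 3 genes is given in full, because 1 is the gene that passed the test below and the others are the genes with a match whose AngII libraries all lay below the saline ones. The 250 bases before the start of Prdx3 lie at chr19:60874539-60874788 on the minus strand, those of Prdx1 at chr4:116685349-116685598 on the plus strand, and those of the Mgst1 start with the match at chr6:138140277-138140526 on the plus strand.
Prdx3: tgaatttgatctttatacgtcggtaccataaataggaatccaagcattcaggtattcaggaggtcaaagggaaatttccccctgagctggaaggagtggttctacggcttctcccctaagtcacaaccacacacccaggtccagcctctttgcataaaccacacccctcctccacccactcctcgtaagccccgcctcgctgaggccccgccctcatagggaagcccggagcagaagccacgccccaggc
Prdx1: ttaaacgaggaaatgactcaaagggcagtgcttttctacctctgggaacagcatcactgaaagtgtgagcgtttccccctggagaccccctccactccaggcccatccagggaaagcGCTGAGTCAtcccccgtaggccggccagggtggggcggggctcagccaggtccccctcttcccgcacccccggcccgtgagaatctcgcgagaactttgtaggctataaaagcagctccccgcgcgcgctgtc
Mgst1: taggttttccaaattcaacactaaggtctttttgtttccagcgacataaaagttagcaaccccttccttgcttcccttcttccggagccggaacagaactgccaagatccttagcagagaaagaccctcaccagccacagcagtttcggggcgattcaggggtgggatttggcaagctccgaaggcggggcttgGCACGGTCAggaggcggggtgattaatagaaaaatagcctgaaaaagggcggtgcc

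Values are those the authors deposited, under a header that does not name the unit. They were read as FPKM, fragments per kilobase of transcript scaled to the size of the library. On that reading levels can be compared between genes of different length. Libraries are numbered within a group in the order of the table's columns, which do not show which sample of the group they hold. All 10 cardiomyocyte markers were detected, with a summed level of 69021 to 99036 FPKM per library. Saline 2 and AngII+PGE1 1 stood apart: on the first principal component of 11866 genes, the 37 left out, they lay on the side of the AngII libraries. Of the 36 antioxidant genes tested, saline 2 was nearer to the AngII mean than to the mean of saline 1 and 3 for 23, or 63.9%, beside 69.7% of all genes tested. AngII+PGE1 1 was nearer to the AngII mean than to the other libraries of its group for 19, or 52.8%, beside 60.4% of all genes. Results are therefore given with and without these 2 libraries.

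The antioxidant transcripts of the heart were abundant and spanned a wide range of levels. In saline hearts the most abundant was Gpx4, the peroxidase that reduces lipid hydroperoxides, at 772 ± 103 FPKM (SD, n = 3). It was followed by Prdx5, a peroxiredoxin found in mitochondria, peroxisomes and cytosol, at 701 ± 190 FPKM, Mgst3, a microsomal glutathione S-transferase, at 627 ± 184 FPKM, and the cytosolic dismutase Sod1 at 553 ± 199 FPKM (SD, n = 3 each). The spread of these 4 genes is wide enough that their order is not distinct. At the low end were Gclc, the catalytic subunit of the ligase that starts glutathione synthesis, at 5.69 ± 0.771 FPKM, the phagocyte oxidase subunit Cybb at 3.42 ± 0.215 FPKM, and the oxidase Nox4 at 0.27 ± 0.165 FPKM (SD, n = 3 each). Together the 37 genes held between 0.928% and 1.08% of the summed FPKM of a library, and this share overlapped between the 3 groups. In 34 of the 37 genes every library reached 5 FPKM, and none of the 37 was at 0 in any library. Nox4 did not reach 1 FPKM in 3 libraries and so was not tested.

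**Figure D1:**
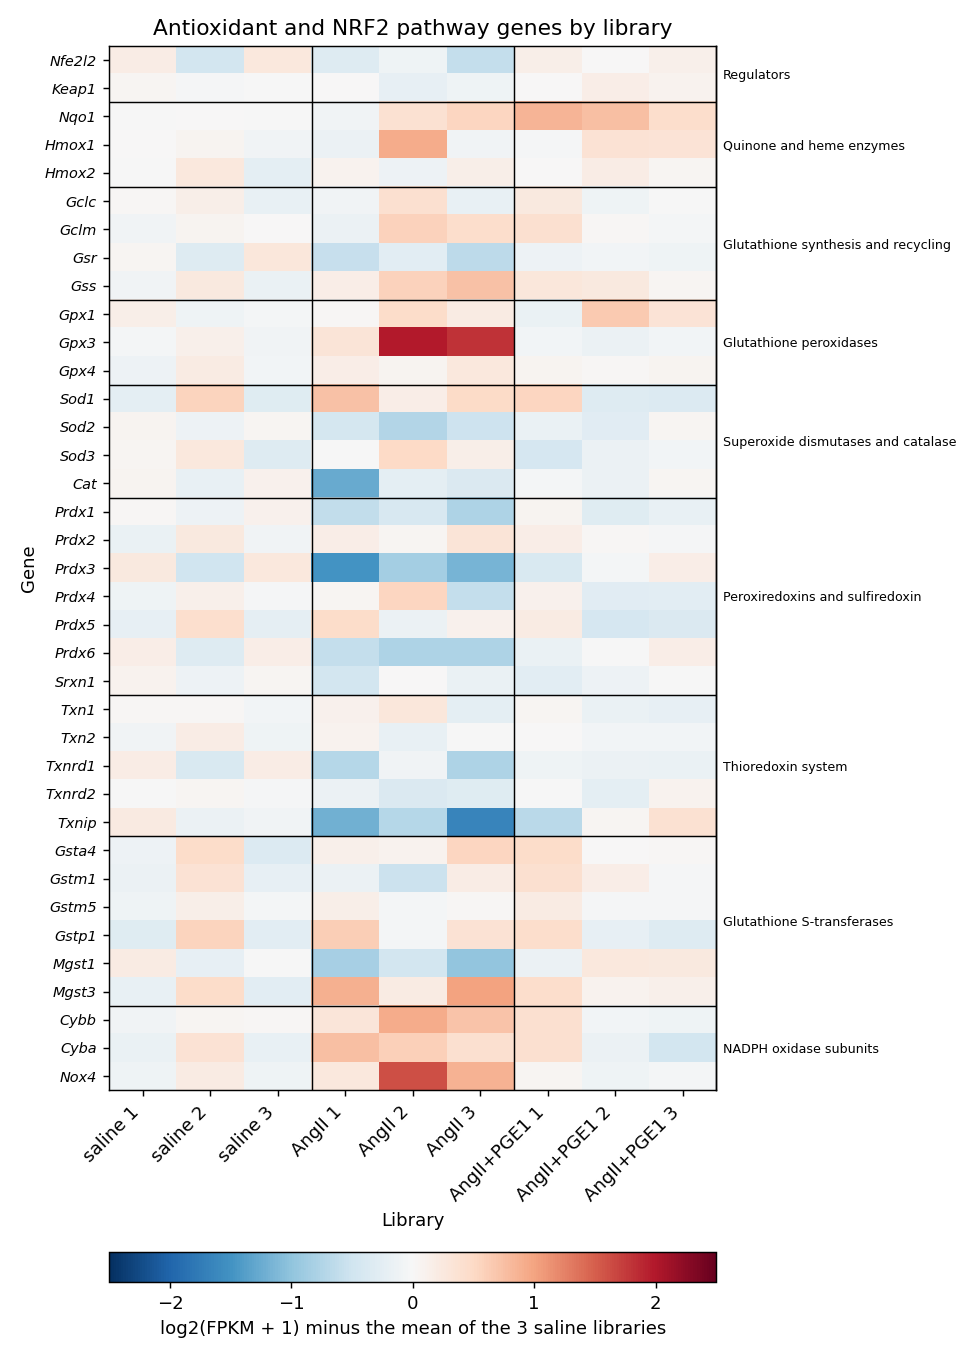
Heat map of the 37 genes (rows, grouped by role) in the 9 libraries (columns); colour is log2(FPKM + 1) minus the mean of the 3 saline libraries. Prdx3, Prdx6, Txnip and Mgst1 were lower in all 3 AngII libraries than in any other library, Gpx3 was highest in AngII 2 and AngII 3, and saline 2 and AngII+PGE1 1 resembled the AngII libraries for Sod1, Gstp1 and Mgst3.

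The comparison of AngII with saline asks what the peptide changed in these genes. Among the 36 tested, the mitochondrial peroxiredoxin Prdx3 fell from 213 ± 58.2 FPKM in saline hearts to 92.9 ± 20.7 FPKM in AngII hearts (SD, n = 3 each), and the other 35 did not pass the test. Prdx6, Prdx1, Txnip, Txnrd2, Mgst1, Sod2 and Cat had lower values in all 3 AngII libraries than in any saline library without passing, and Gpx3, Cybb and Cyba had higher ones. The classical NRF2 targets Nqo1, Hmox1, Gclc, Gclm and Srxn1 overlapped between the groups, whereas Prdx1, also a known NRF2 target, did not. The test was limma's moderated test on log2(FPKM + 1) with Benjamini-Hochberg adjustment over all 11902 genes tested, and a gene passed at an adjusted p under 0.05. By this rule 1 of 36 genes was called, and it was lower, beside 3.11% of all genes called and 1.8% called lower, so the share among the antioxidant genes was near the background. At an unadjusted p under 0.05 there were 14 of the 36, beside 35% of all genes. No overlap between AngII and saline libraries was seen for 11 of the 36 genes, 8 lower and 3 higher, beside 33.7% of all genes, 15.8% lower and 17.9% higher. The median log2 difference was 0.04 over the 36 genes and 0.00 over all genes.

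Peroxiredoxins reduce hydrogen peroxide with a reactive cysteine. Prdx3, the mitochondrial form, was at 244, 145 and 248 FPKM in saline, at 72.5, 114 and 92.3 with AngII, and at 159, 199 and 232 with AngII+PGE1. The 3 AngII libraries were the lowest of the 9, and saline 2 and AngII+PGE1 1 were the lowest of their groups. Against saline it fell by 1.17 on the log2 scale with AngII (SE 0.25, limma adjusted p = 0.0453). In the authors' deposited table its log2 ratio of AngII over saline is -1.24. The call rested on many libraries: it was lost when saline 1, saline 3, any of the 3 AngII libraries, AngII+PGE1 2 or AngII+PGE1 3 was left out, with a limma adjusted p of 0.0595 to 0.225. In those refits 0% to 0.504% of all genes passed, so the loss was not particular to Prdx3. Without saline 2 and AngII+PGE1 1, when 48.9% of all genes passed, the log2 difference was -1.42 (limma adjusted p = 0.000721). Adjusted for the side of the first component on which a library lay, it was -0.77 (limma adjusted p = 0.117). All 3 AngII libraries lay on the same side, so this adjustment takes up part of the AngII difference by construction.

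Prdx6, which reduces phospholipid hydroperoxides and has a closely similar gene copy, was at 112, 78.5 and 111 FPKM in saline, 65.0, 57.9 and 57.6 with AngII, and 88.6, 98.6 and 111 with AngII+PGE1. The AngII values lay close together and below all others, but the log2 difference from saline of -0.71 missed the threshold (SE 0.17, limma adjusted p = 0.054). Prdx1, a cytosolic peroxiredoxin and a known NRF2 target, was at 198, 177 and 208 FPKM in saline, 126, 147 and 113 with AngII, and 203, 156 and 171 with AngII+PGE1. The groups of AngII and saline did not overlap here either, and the log2 difference was -0.60 (SE 0.17, limma adjusted p = 0.0656). The remaining peroxiredoxins overlapped between AngII and saline: Prdx2, the abundant red-cell form, ranged from 228 to 318 FPKM over all 9 libraries, the secretory-pathway form Prdx4 from 12.3 to 28.0, and Prdx5 from 513 to 938. Srxn1, the sulfiredoxin that repairs over-oxidized peroxiredoxins, ranged from 8.16 to 12.4 FPKM. None of these 4 passed, with limma adjusted p-values of 0.371 to 0.999.

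Within the family, the mixture of peroxiredoxin transcripts differed by library, a pattern looked at after the values were seen and not tested. Prdx3 made up 17.5%, 8.84% and 17.5% of the summed FPKM of Prdx1 to Prdx6 in the saline libraries, 4.81%, 9.26% and 6.95% in the AngII libraries, and 10.3%, 16.02% and 17.7% in the AngII+PGE1 libraries. Saline 2 thus lay within the AngII range. Prdx5 made up 42.7%, 55.9% and 41.5% in saline and 62.2%, 50.4% and 55.3% with AngII. The summed level of the 6 genes was 1396, 1646 and 1415 FPKM in saline and 1507, 1230 and 1328 with AngII, so the groups overlapped in the total.

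**Figure D2:**
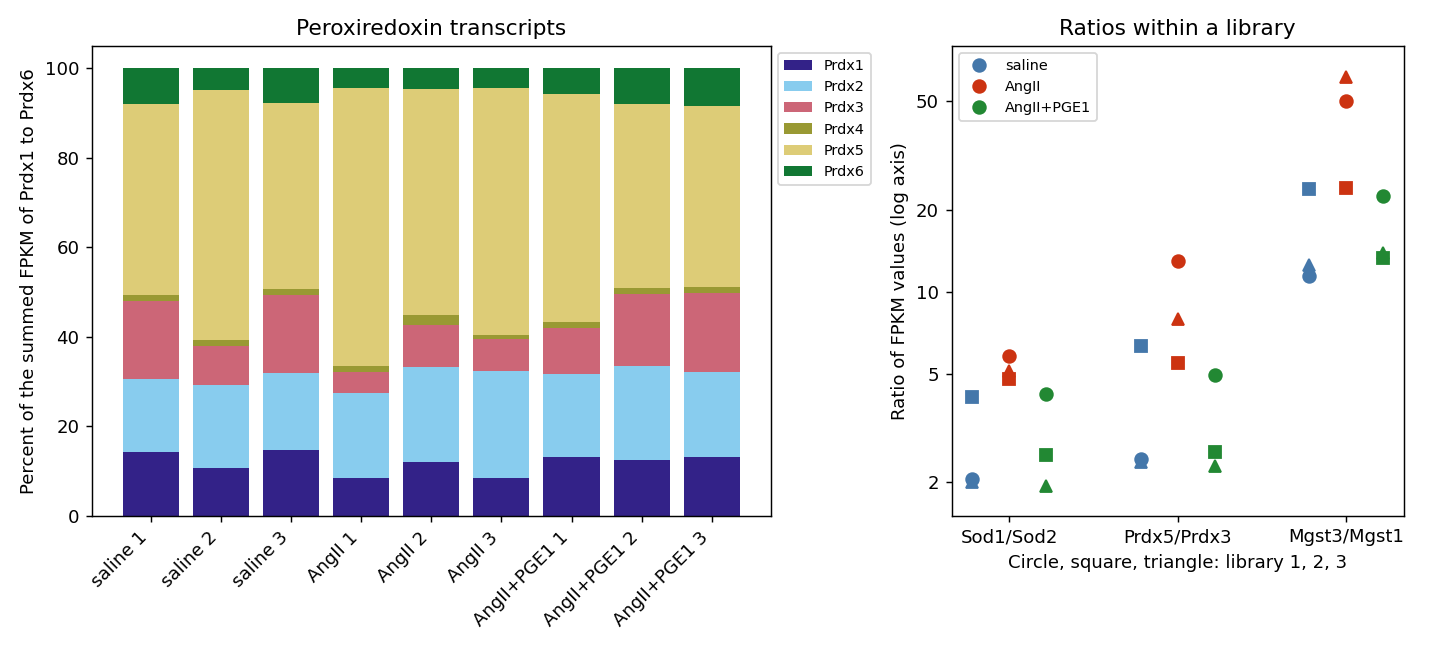
Left, percent of the summed FPKM of Prdx1 to Prdx6 held by each gene in each library; right, ratios of FPKM within a library for 3 pairs of genes on a log axis, with colour for the group and symbol for the library number. Prdx3 held 4.81% to 9.26% in the AngII libraries and 16.02% or more in 4 of the other 6, and the Sod1/Sod2 ratio was above 4 in saline 2, AngII+PGE1 1 and the 3 AngII libraries.

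The thioredoxin system feeds electrons from NADPH to peroxiredoxins. Txnip, the thioredoxin-binding protein that restrains thioredoxin and glucose uptake, was at 234, 181 and 189 FPKM in saline, 86.0, 122 and 63.4 with AngII, and 125, 207 and 262 with AngII+PGE1. All AngII values were below the rest, although AngII+PGE1 1 was close to AngII 2, and the log2 difference from saline was -1.19 (SE 0.30, limma adjusted p = 0.0558). Txnrd1, the cytosolic thioredoxin reductase and an NRF2 target, was at 20.1, 13.4 and 20.3 FPKM in saline, 10.3, 16.4 and 9.94 with AngII, and 16.2, 15.8 and 15.6 with AngII+PGE1. Saline 2 lay between the AngII libraries, and the gene did not pass (log2 difference -0.53, SE 0.22, limma adjusted p = 0.12). The mitochondrial reductase Txnrd2 averaged 19.6 ± 0.508 FPKM after saline and 16.2 ± 1.36 after AngII (SD, n = 3 each), with no overlap (limma adjusted p = 0.206). The thioredoxins themselves varied little: Txn1, cytosolic, ranged from 46.0 to 67.2 FPKM over all libraries, and the mitochondrial Txn2 from 229 to 299.

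Superoxide dismutases turn superoxide into peroxide, and catalase breaks peroxide down in peroxisomes. Sod2, the mitochondrial manganese enzyme, was at 219, 191 and 214 FPKM in saline, 153, 124 and 145 with AngII, and 184, 169 and 216 with AngII+PGE1. All 3 AngII values were below those of the other 6 libraries, and the log2 difference from saline was -0.56 (SE 0.16, limma adjusted p = 0.067). Cat, the catalase gene, was at 128, 108 and 131 FPKM in saline, 50.5, 103 and 94.5 with AngII, and 118, 110.1 and 127 with AngII+PGE1. AngII 1 was far below the others, and the highest AngII library was only just below the lowest saline library (log2 difference -0.62, SE 0.24, limma adjusted p = 0.11). Sod1 was at 448, 782 and 428 FPKM in saline, 883, 593 and 742 with AngII and 772, 425 and 417 with AngII+PGE1, so that the 2 libraries that stood apart were high with the AngII libraries. The ratio of Sod1 to Sod2 was 2.05, 4.10 and 2.003 in saline, 5.79, 4.78 and 5.13 with AngII, and 4.21, 2.51 and 1.94 with AngII+PGE1. The secreted form Sod3 ranged from 33.6 to 64.1 FPKM over all libraries and did not pass (limma adjusted p = 0.454).

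Glutathione peroxidases use glutathione to reduce peroxides. Gpx3, the secreted plasma form, was at 227, 257 and 221 FPKM in saline, 294, 933 and 823 with AngII, and 224, 213 and 223 with AngII+PGE1. AngII 2 and 3 stood over 3 times above every library outside their group, whereas AngII 1 was just above saline 2, and with a log2 difference from saline of 1.37 the gene did not pass (SE 0.36, limma adjusted p = 0.061). Without AngII 1 the difference was 1.90 and the gene passed (limma adjusted p = 0.00745), when 0.504% of all genes passed. AngII 1 was the lowest AngII library for Gpx3. Leaving it out widens the difference by construction, so that pass is no independent support. Gpx3 also passed without saline 2 and without AngII+PGE1 1, when 38% and 13.3% of all genes passed. Fibroblast markers also varied among the AngII libraries. The summed FPKM of all 9 markers was 574, 1683 and 769 in AngII 1, 2 and 3. It was between 555 and 637 in saline, and between 432 and 486 with AngII+PGE1. In AngII 2 most of the sum came from Dcn at 513, Col1a1 at 376, Col3a1 at 352 and Col1a2 at 302 FPKM. The log2 difference of AngII from saline was positive for 4 of the 9 markers and negative for 5. None of the 9 passed and none was at 0. The part of these markers in the Gpx3 values was not tested. In bulk tissue, fewer cells of a type and less RNA per cell cannot be told apart.

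Gpx1, the cytosolic peroxidase, ranged from 69.7 to 83.9 FPKM in saline, from 76.5 to 104 with AngII and from 67.2 to 119 with AngII+PGE1, and did not pass (limma adjusted p = 0.451). Its highest library, AngII+PGE1 2, was also the highest for the 7 erythroid markers found, whose summed FPKM was 9749 there and 141 to 2295 in the other 8 libraries; 5 of the 7 were tested and none passed, and Slc4a1 was at 0 in at least 1 library. Gpx1, Prdx2 and Cat are abundant in red cells; Prdx2 and Cat were not highest in that library. The part of blood in the Gpx1 values was not tested. Gpx4 ranged only from 698 to 923 FPKM.

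**Figure D3:**
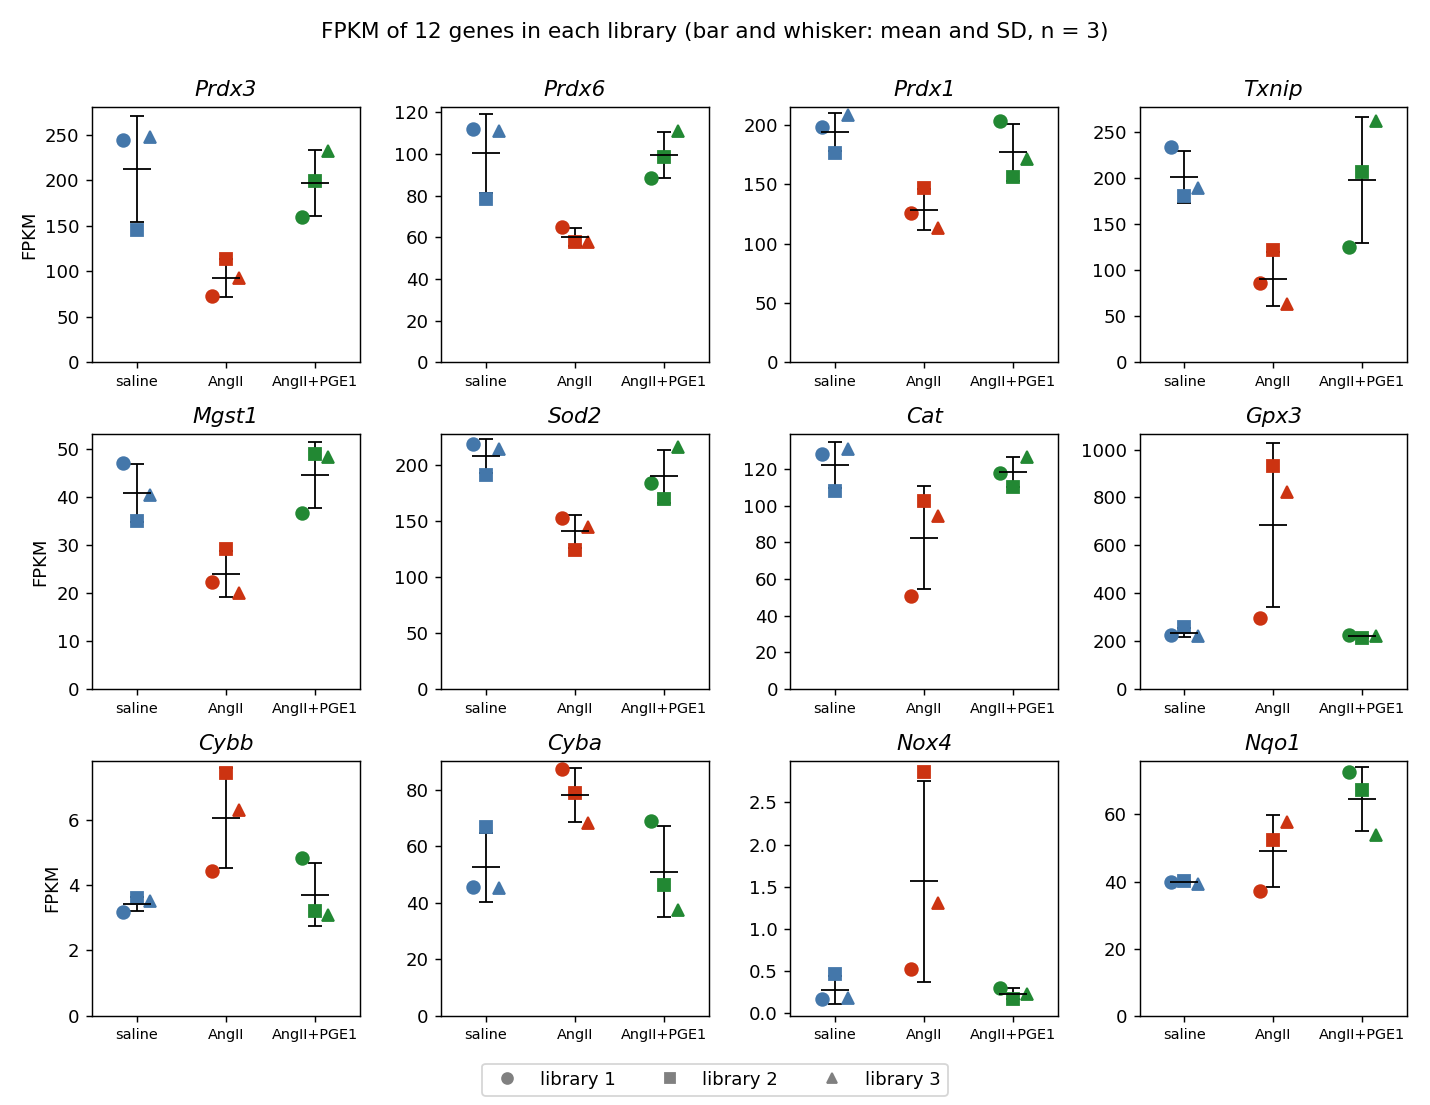
FPKM of 12 genes in each library, with the mean and SD of each group (n = 3); circle, square and triangle are libraries 1, 2 and 3. For Prdx3, Prdx6, Prdx1, Txnip, Mgst1, Sod2 and Cat the AngII libraries lay below all others, for Gpx3 they lay above all others, and Nqo1 was higher in all 3 AngII+PGE1 libraries than in any saline library.

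Glutathione is made in 2 steps by the ligase Gclc-Gclm and by Gss, and is recycled by the reductase Gsr. Gclc was at 5.84, 6.38 and 4.86 FPKM in saline, 5.31, 7.76 and 4.86 with AngII, and 6.85, 5.15 and 5.59 with AngII+PGE1. Gclm, the modifier subunit, was at 10.4, 11.8 and 11.2 FPKM in saline, 9.89, 17.1 and 15.4 with AngII, and 15.1, 11.4 and 10.7 with AngII+PGE1. Both genes overlapped between all 3 groups (limma adjusted p = 0.88 for Gclc and 0.335 for Gclm against saline). Gss, which adds the last amino acid, was at 8.56, 11 and 8.09 FPKM in saline, 10.4, 14.1 and 15.9 with AngII, and 11.3, 11.04 and 9.52 with AngII+PGE1. AngII 2 and 3 were the highest and saline 2 lay above AngII 1; the log2 difference was 0.49 (SE 0.19, limma adjusted p = 0.101). Gsr was at 10.4, 7.86 and 12.5 FPKM in saline, 6.4, 8.29 and 6.09 with AngII, and 9.13, 9.58 and 9.36 with AngII+PGE1. Its groups overlapped through saline 2, and the log2 difference was -0.50 (SE 0.18, limma adjusted p = 0.0973).

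The regulators of the pathway did not pass. Nfe2l2 was at 35.99, 22.5 and 37.8 FPKM in saline, 24.9, 28.9 and 20.5 with AngII, and 34.9, 31.5 and 34.1 with AngII+PGE1. Saline 2 lay within the AngII range, and the log2 difference of -0.34 did not pass (SE 0.21, limma adjusted p = 0.256). Keap1 was nearly flat, at 22.4, 21.2 and 21.7 FPKM in saline, 21.9, 18.6 and 20.04 with AngII, and 21.9, 24.5 and 23.0 with AngII+PGE1 (limma adjusted p = 0.572 against saline). Protein levels and the location of NRF2 were not measured, and a transcript level does not show them.

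Nqo1, the quinone reductase that is the usual readout of NRF2 activity, was at 39.8, 40.3 and 39.3 FPKM in saline, 37.2, 52.3 and 57.8 with AngII, and 72.6, 67.4 and 54.0 with AngII+PGE1. The saline libraries were almost equal, the AngII libraries spread on both sides of them, and all 3 AngII+PGE1 libraries lay above saline. For AngII against saline the log2 difference of 0.27 did not pass (SE 0.19, limma adjusted p = 0.305). Hmox1, the inducible heme oxygenase, was at 7.80, 8.10 and 7.20 FPKM in saline, 6.82, 15.6 and 7.13 with AngII, and 7.53, 10.2 and 9.97 with AngII+PGE1. AngII 2 alone was high, and the other AngII libraries were below every saline library (limma adjusted p = 0.55). The constitutive form Hmox2 ranged from 61.3 to 86.8 FPKM over all 9 libraries.

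Glutathione S-transferases conjugate electrophiles to glutathione. Mgst1, a membrane form in mitochondria and endoplasmic reticulum, was at 47.1, 35.1 and 40.5 FPKM in saline, 22.4, 29.3 and 20.1 with AngII, and 36.7, 49.0 and 48.4 with AngII+PGE1. The AngII libraries were the lowest 3 of the 9, and the log2 difference from saline was -0.76 (SE 0.19, limma adjusted p = 0.0571). Mgst3 was at 536, 839 and 507 FPKM in saline, 1126, 702 and 1231 with AngII, and 824, 653 and 671 with AngII+PGE1. Its values thus lay in the opposite direction to those of Mgst1, with an overlap through saline 2 and AngII 2 (log2 difference 0.70, SE 0.27, limma adjusted p = 0.104). The soluble forms did not pass: Gsta4, which conjugates lipid aldehydes, averaged 92.1 ± 27.7 FPKM after saline and 108 ± 19.9 after AngII, Gstm1 of 328 ± 73.6 and 294 ± 72.6, Gstm5 of 55.8 ± 5.38 and 57.6 ± 4.04, and Gstp1 of 324 ± 115 and 392 ± 86.4 (SD, n = 3 each; limma adjusted p = 0.45 to 0.831). Gstm1, Gstm5 and Gstp1 have closely similar gene copies, so that their values are uncertain.

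NADPH oxidases are membrane complexes that make superoxide or peroxide. Cybb, the catalytic subunit of phagocytes, was at 3.18, 3.59 and 3.50 FPKM in saline, 4.42, 7.44 and 6.29 with AngII, and 4.83, 3.22 and 3.08 with AngII+PGE1. Cyba, the subunit that Cybb and Nox4 share, was at 45.6, 66.6 and 45.2 FPKM in saline, 87.3, 78.8 and 68.2 with AngII, and 68.8, 46.3 and 37.5 with AngII+PGE1. For both genes the AngII libraries lay above all saline libraries, by log2 differences of 0.65 (SE 0.20, limma adjusted p = 0.0747) and 0.58 (SE 0.24, limma adjusted p = 0.119). Nox4, the constitutively active form of fibroblasts and muscle, was at 0.17, 0.46 and 0.18 FPKM in saline, 0.52, 2.86 and 1.31 with AngII, and 0.30, 0.17 and 0.22 with AngII+PGE1. AngII 2 was the highest and AngII 1 only just above saline 2; when all genes entered the fit, the log2 difference from saline was 0.92 (SE 0.28, limma adjusted p = 0.096), and in the authors' deposited table the log2 ratio of AngII over saline is 2.43.

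Phagocyte markers were set beside Cybb and Cyba. Of the 13 macrophage and monocyte markers tested, 1, the chemokine receptor Ccr2, rose with AngII, beside 1.31% of all genes called higher. Ccr2 was low, at 0.51 to 0.92 FPKM in saline and 1.41 to 3.65 with AngII. The log2 difference was positive for 8 of the 13 and negative for 5. The summed FPKM of the list was 368 to 572 in saline and 442 to 654 with AngII. Of 7 neutrophil markers found, 4 were tested and 1, Csf3r, rose. Csf3r was also low, at 0.98 to 1.55 FPKM in saline and 2.58 to 3.35 with AngII. The log2 difference was positive for 3 of the 4 and negative for 1. The summed FPKM of the 7 was 4.58 to 7.06 in saline and 8.28 to 14.0 with AngII. The defining marker Ly6g was at 0 in libraries of all 3 groups and at most 0.22 FPKM, so it does not tell the groups apart. The part of these cells in the oxidase values was not tested.

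Other genes of the pathway were taken from 6 lists of 132 genes, of which 110 were tested. With AngII 2 rose and 5 fell, and 103 did not pass, beside 1.31% of all genes higher and 1.8% lower. Both that rose are phagocyte oxidase partners from the list of oxidant sources: Rac2, a GTPase that activates the complex, was at 3.27, 3.37 and 3.42 FPKM in saline and 6.08, 6.59 and 6.11 with AngII, and rose by 0.74 on the log2 scale (SE 0.13, limma adjusted p = 0.0403). Ncf4, a cytosolic subunit of the same complex at under 5 FPKM and named after its values were seen, rose by 0.89, with 1.44 ± 0.191 FPKM after saline and 3.59 ± 1.07 after AngII (limma adjusted p = 0.0453; SD, n = 3 each). Maob, a mitochondrial monoamine oxidase that releases peroxide, fell by 1.23, with 22.4 ± 8.35 FPKM after saline and 8.59 ± 1.74 after AngII (limma adjusted p = 0.0453; SD, n = 3 each), so that 2 rose and 1 fell of 13 tested in that list. From the list headed other thiol, metal and selenium antioxidants, 27 genes were tested, of which 2 fell and 25 did not pass. The 2 are a mitochondrial uncoupling protein, Ucp3, and an aldehyde dehydrogenase, Aldh2. Ucp3 fell by 1.25 on the log2 scale. Aldh2 fell by 0.91, with 103 ± 16.3 FPKM after saline and 54.2 ± 4.58 after AngII (SD, n = 3 each). The limma adjusted p was 0.0403 for both. Of 12 genes of NADPH supply 1 fell, the mitochondrial NAD kinase Nadk2, by 0.76, and of 26 further glutathione enzymes 1 fell, Gstm7, by 0.68 (limma adjusted p = 0.0481 and 0.0471); Gstm7 has closely similar copies and is uncertain. None of 12 NRF2 partners and none of 20 further NRF2 target genes passed in limma, with 2 and 9 at an unadjusted p under 0.05, beside 35% of all genes. The median log2 difference over the 110 genes was -0.05. Each of these 7 calls was lost when saline 1 was left out, when none of all genes passed, and 53 of the 110 passed without saline 2 and AngII+PGE1 1, 25 higher and 28 lower, when 48.9% of all genes passed.

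**Figure D4:**
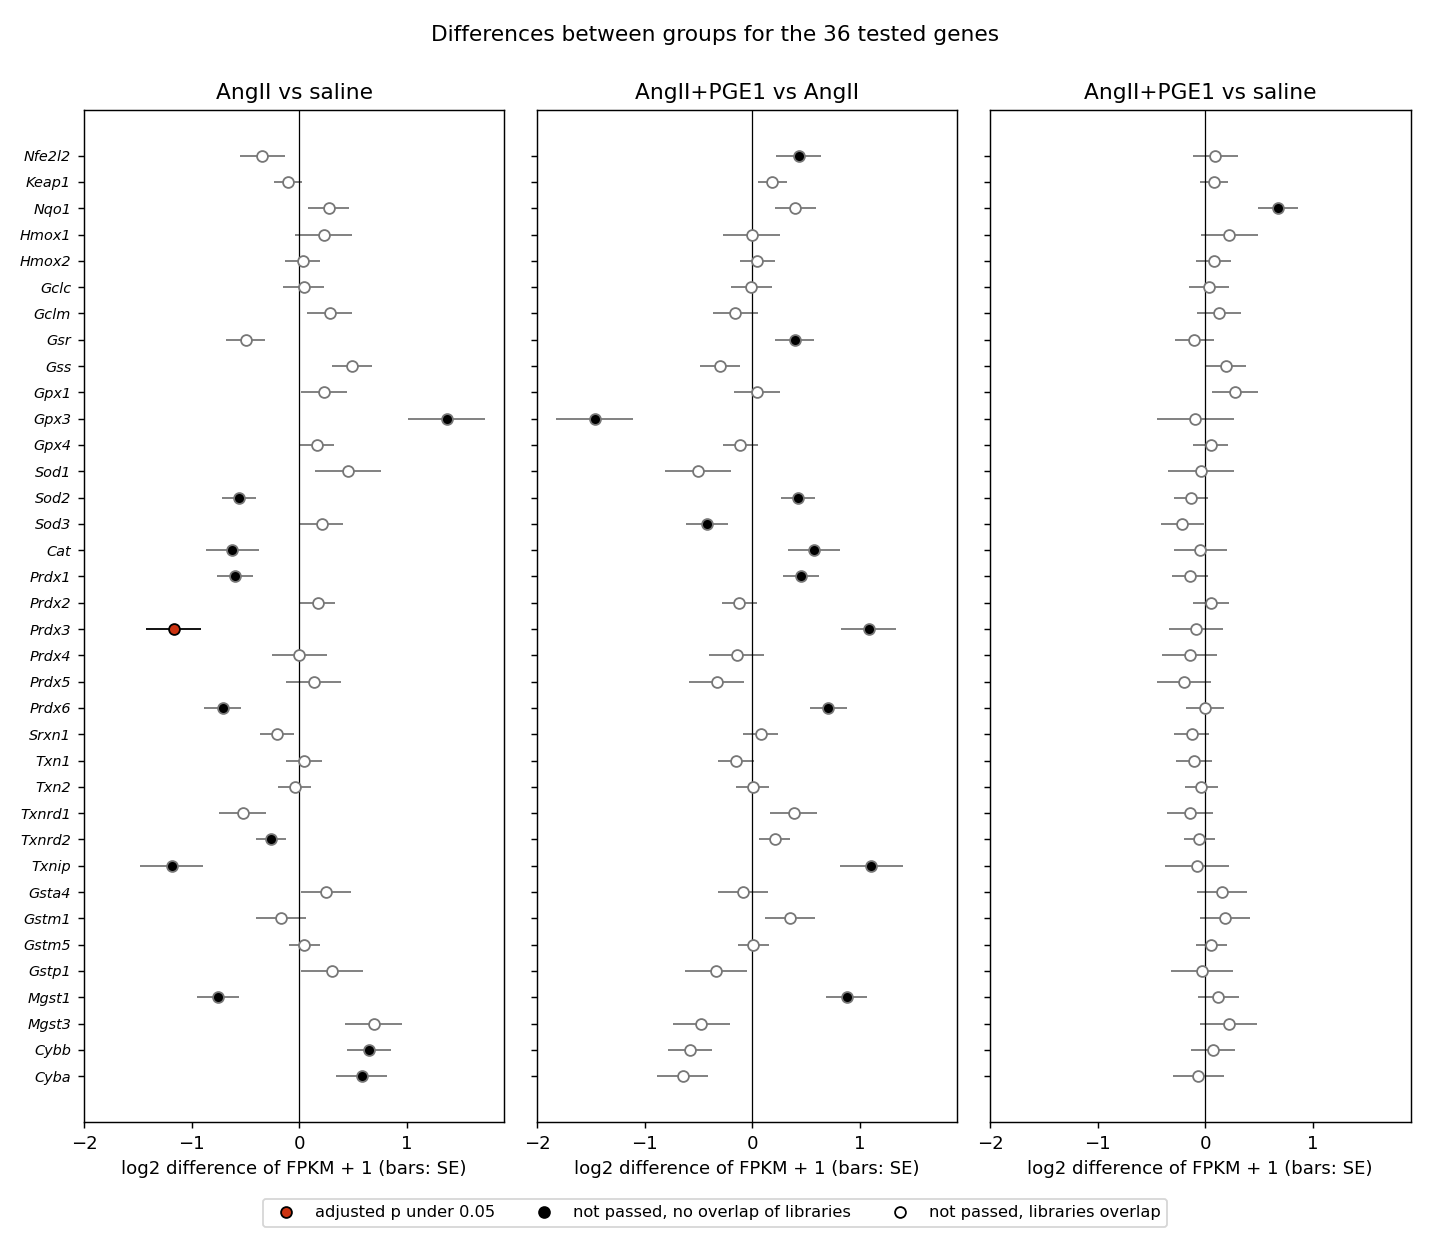
Log2 differences of FPKM + 1 with their standard errors for the 36 tested genes in the 3 comparisons; red marks an adjusted p under 0.05, black a gene that did not pass but whose libraries did not overlap between the groups, white a gene with overlap. Prdx3 for AngII against saline is the only red point of the 3 panels, and in the third panel Nqo1 is the only black one.

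The comparison of AngII+PGE1 with AngII asks what PGE1 changed on top of the peptide. No antioxidant gene passed: limma called 0 of 36, with 10 at an unadjusted p under 0.05, beside 0.403% and 33.6% of all genes. Mgst1, Prdx3, Prdx6 and Txnip were at higher values with PGE1 and Gpx3 at lower ones, each just short of the threshold. The log2 difference was 0.88 for Mgst1 (SE 0.19, limma adjusted p = 0.0566), 1.08 for Prdx3 (SE 0.25, limma adjusted p = 0.059), 0.71 for Prdx6 (SE 0.17, limma adjusted p = 0.06) and 1.11 for Txnip (SE 0.30, limma adjusted p = 0.0649). For Gpx3 it was -1.47 (SE 0.36, limma adjusted p = 0.0597), where the AngII+PGE1 libraries were tightly grouped and the AngII libraries were not. Separate groups were seen for 11 of the 36 genes, 9 higher and 2 lower with PGE1, beside 36.1% of all genes, 16.3% higher and 19.7% lower. The 9 also included Nfe2l2, Gsr, Prdx1, Sod2 and Cat, and the other lower gene was Sod3.

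Cybb (log2 difference -0.58, SE 0.20, limma adjusted p = 0.0961) and Cyba (-0.65, SE 0.24, limma adjusted p = 0.105) overlapped between these groups through AngII+PGE1 1. Nqo1 differed by 0.40 (SE 0.19, limma adjusted p = 0.158) with an overlap through AngII 3, which was above AngII+PGE1 3. None of the 110 other pathway genes passed in limma, with 43 at an unadjusted p under 0.05. This comparison and the previous one share the AngII libraries with opposite sign, so values that lie low with AngII in one tend to lie high with PGE1 in the other. The median log2 difference was 0.01 over the 36 genes and -0.08 over all genes.

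The comparison of AngII+PGE1 with saline asks how far the hearts given both agents differed from controls. Limma called 0 of 36 genes, with 1 at an unadjusted p under 0.05, beside 0.0168% and 4.23% of all genes. The 1 gene was Nqo1, which averaged 39.8 ± 0.486 FPKM after saline and 64.7 ± 9.58 after AngII+PGE1 (SD, n = 3 each). Its log2 difference was 0.68, higher in 3 of 3 libraries, and did not pass (SE 0.19, limma adjusted p = 0.953; unadjusted p = 0.00464). It was also the only one of the 36 genes whose libraries did not overlap, beside 10.2% of all genes, 2.3% higher and 7.89% lower. The difference of Nqo1 was 0.59 to 0.80 over the 17 alternative analyses and passed in none, with limma adjusted p-values of 0.331 to 1. Of the other NRF2 targets among the 36, Hmox1, Gclc, Gclm, Srxn1 and Txnrd1 were closer to saline. Their log2 differences were 0.22, 0.04, 0.13, -0.13 and -0.14, each with overlap and a limma adjusted p of 1. The log2 differences of Prdx3, Txnip and Gpx3 from saline were -0.09, -0.08 and -0.09, with standard errors of 0.25, 0.30 and 0.36. None of the 110 other pathway genes passed in limma either, with 6 at an unadjusted p under 0.05. Without overlap, 7 of the 110 were higher than saline and 7 lower. Among the higher was Gsta3, a further glutathione enzyme, with a log2 difference of 0.67, close to that of Nqo1 (SE 0.19, limma unadjusted p = 0.0056). The 20 further NRF2 target genes ran from -0.51 for Aox1 to 0.43 for Ephx1, 8 positive and 12 negative.

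The calls depended on the 2 libraries that stood apart, for these genes as for all genes. These 2 were picked from the same data because they lay on the side of the AngII libraries. Leaving them out therefore tends to widen the differences from AngII by construction, and the genes that pass without them have no independent support from it. Without saline 2 and AngII+PGE1 1, 17 of 36 genes passed for AngII against saline, 8 higher and 9 lower, when 48.9% of all genes passed, so the share was again near the background. The 9 lower were Prdx3, Prdx6, Prdx1, Txnip, Txnrd1, Mgst1, Sod2, Gsr and Nfe2l2, and the 8 higher were Gpx3, Cybb, Cyba, Gss, Mgst3, Gstp1, Sod1 and Gsta4. For AngII+PGE1 against AngII 11 passed in that setting, beside 44.8% of all genes: Prdx3, Prdx6, Mgst1, Txnip and Sod2 were higher and Gpx3, Cybb, Cyba, Prdx5, Gstp1 and Sod1 lower. For AngII+PGE1 against saline none passed in that setting, with 0.168% of all genes. Nqo1, Hmox1, Gclc, Gclm and Srxn1 passed in no setting and no comparison.

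**Figure D5:**
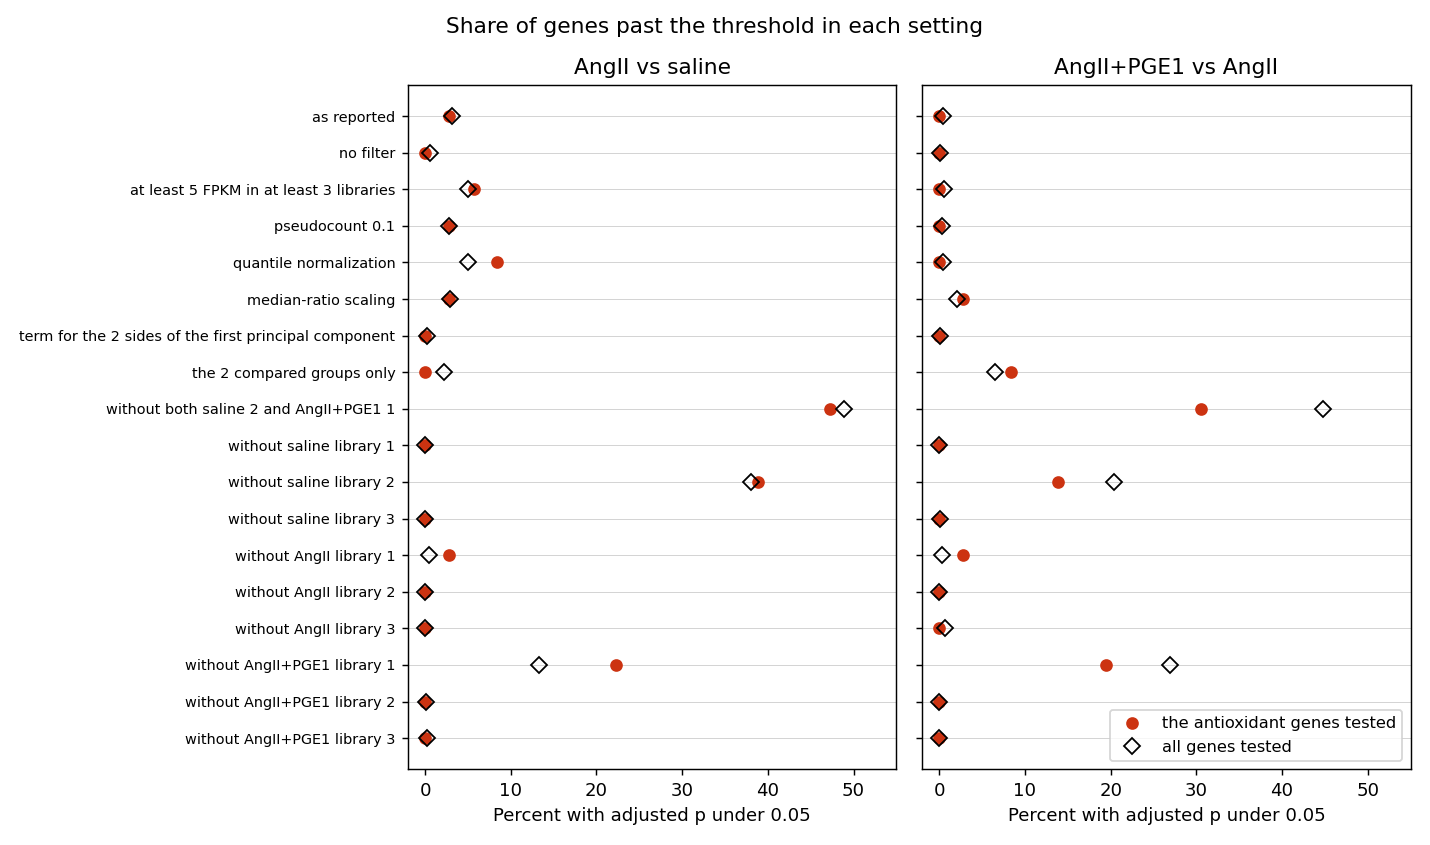
Percent of the tested antioxidant genes (red circles) and of all tested genes (open diamonds) with an adjusted p under 0.05, in each of 18 analyses, for 2 comparisons. Without both saline 2 and AngII+PGE1 1 the share of all genes called was 48.9% for AngII against saline and 44.8% for AngII+PGE1 against AngII, whereas it was 0% when saline 1 was left out.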

How the data were processed

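The authors deposited 1 table with a value per gene for each of 9 libraries. Its header does not name the unit. The deposited values were read as FPKM because of the column sums. These ran from 539083 to 680885, a ratio of 1.26, against 1.09 after multiplication by transcript length. The sums were 612409 to 680885 in the 3 AngII libraries, saline 2 and AngII+PGE1 1, and 539083 to 586122 in the others. The part of this split in the results was not tested. The submitters' processing notes name the build mm9 and the tools RSEM 1.2.12, HISAT2 2.0.4 and Bowtie2 2.2.5, without role or order. Annotation and strand use are not given in the sources used here. Log2 ratios between groups were also deposited by the authors, and their making is not stated. FPKM falls for all genes when a few transcripts dominate a library. No counts were used; the spacing of low values gave a rough depth of 11550000 to 14900000 reads on genes, used in no test.

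Columns were assigned to groups by name. The 11902 genes that reached 1 FPKM in 3 or more libraries entered 1 limma model (limma 3.58.1, R 4.3.3) of log2(FPKM + 1) with a mean per group, a variance trend and 6 residual degrees of freedom. The pseudocount of 1 understates changes of low genes. The model was tested on simulated data. Genes, lists and alternatives were chosen with earlier results of these data known. All 9 values are printed for 21 genes: any that passed, 10 fixed by name, and the 10 with the smallest p. Those of Sod1 are also printed, a choice made after its values were seen.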

Additional observations from a re-analysis of the deposited data

How the results depend on the processing

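Each comparison was refitted under 17 alternatives. Percentages in brackets are the share of all genes that passed in the same setting. For AngII against saline 1 antioxidant gene passed as reported (3.11%). The number was 0 without a filter (0.519%), 2 with a minimum of 5 FPKM (5.04%) and 3 with quantile normalization (4.98%). It was 0 after adjustment for the side of the first principal component (0.176%), 0 with only the 2 compared groups (2.23%), and 17 without both saline 2 and AngII+PGE1 1 (48.9%). Leaving out 1 library at a time gave 0 to 14, with 14 without saline 2 (38%), 8 without AngII+PGE1 1 (13.3%), and 1, Gpx3 and not Prdx3, without AngII 1 (0.504%). For AngII+PGE1 against AngII 0 antioxidant genes passed as reported (0.403%). With median-ratio scaling 1 passed, Mgst1 (2.06%). With only the 2 compared groups 3 passed, Prdx3, Prdx6 and Mgst1 (6.49%), and without both libraries 11 (44.8%). Leaving out 1 library at a time gave 0 to 7, with 5 without saline 2 (20.4%), 7 without AngII+PGE1 1 (26.9%) and 1 without AngII 1 (0.277%). For AngII+PGE1 against saline the number was 0 under every alternative run. The 110 other pathway genes were refitted in the same way, a choice made after seeing the data. Of these 7 passed for AngII against saline as reported, 1 without a filter, 0 after the adjustment for side, 4 with only the 2 compared groups and 53 without both libraries (48.9% of all genes); leaving out 1 library at a time gave 0 to 45, with 45 without saline 2 (38% of all genes), 15 without AngII+PGE1 1 (13.3% of all genes), 2 without AngII 1 and 0 without any of the other 6. For AngII+PGE1 against AngII, 0 passed as reported, 4 with median-ratio scaling, 12 with only the 2 compared groups and 55 without both libraries (44.8% of all genes); leaving out 1 library at a time gave 0 to 33, with 33 without saline 2 (20.4% of all genes) and 30 without AngII+PGE1 1 (26.9% of all genes). The cause of these changes was not tested, apart from the smaller or larger number of libraries and genes each setting has by construction. The differences with an unadjusted p under 0.05, 25 over the 3 comparisons, kept their sign in every refit. Among the other 83 differences the sign changed in 119 of 1410 refits and none of those passed. The printed sign of a value near 0 is therefore not read as a direction. For AngII against saline the refits ran from -0.11 to 0.74 for Sod1, -0.20 to 0.58 for Gstp1 and -0.13 to 0.48 for Gsta4. For AngII+PGE1 against AngII they ran from -0.79 to 0.07 for Sod1, -0.56 to 0.17 for Gstp1 and -0.53 to 0.08 for Prdx5. The direction of these genes thus depended on the setting. No paired analysis was possible because the numbers in the column names are not those of the sample labels and do not tell which sample a column holds. FPKM without counts gives no counting error, so none is attached to any value, those of low genes such as Nox4, Ncf4, Rac2 and Cybb included.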
